A study of Mus musculus with 12 samples.

Results

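Glb1l2, Gramd2, Ppp1r42, Slc17a1, Gm15513, Gm5297, CT025671.4, ENSMUSG00000118515 and ENSMUSG00000120669 are 9 of the 53707 genes in the deposited gene table. They are little-studied coding genes and noncoding loci, and they were chosen because their counts were about 3-fold or more higher at 25 mM than at 5 mM glucose in these same libraries. The size of that difference is therefore a description of the choice and is given without a test. Retinal explants, which are retinas kept alive in culture medium, were prepared from wild-type C57Bl/6J mice at 28 days of age after removal of the retinal pigment epithelium. Both groups were kept for 48 hours in Neurobasal-A medium, with 5 mM glucose in one group and 25 mM in the other, followed by a short incubation in Krebs' Ringer solution. Each group held 3 biological replicates, and each replicate gave 2 libraries of total RNA, the first in batch 1 and the second in batch 2, for 12 libraries in all. The labels do not say which explants came from the same animal, so the spread between replicates may be partly technical.

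The 4 coding genes belong to families that are better known in other tissues. Glb1l2 is a relative of lysosomal beta-galactosidase, the enzyme that removes terminal galactose from glycoconjugates. Gramd2 codes for a protein with a GRAM domain, a lipid-binding fold of proteins at contacts between the endoplasmic reticulum and the plasma membrane. Ppp1r42 is a leucine-rich repeat protein that binds protein phosphatase 1 and is found at the centrosome. Slc17a1 is a sodium-dependent phosphate and organic anion transporter known from the kidney proximal tubule. The noncoding members include an RNA read from inside an intron, a processed pseudogene and a long intergenic RNA. A processed pseudogene is a copy of a spliced messenger RNA that was written back into the genome.

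Positions refer to the GENCODE M21 annotation of GRCm38, the build named in the submitters' processing notes, and were found for 7 of the 9 genes. Glb1l2 (ENSMUSG00000036395) lies at chr9:26763044-26806468 on the minus strand, Gramd2 (ENSMUSG00000074259) at chr9:59680144-59718874 on the plus strand, and Ppp1r42 (ENSMUSG00000025916) at chr1:9968624-10009136 on the minus strand. Slc17a1 (ENSMUSG00000021335) lies at chr13:23867750-23895730 on the plus strand. Gm15513 (ENSMUSG00000086291, chr5:34211810-34213802, minus strand) is annotated as sense-intronic and lies in intron 8 of the coding transcript Zfyve28-201, on the same strand. Gm5297 (ENSMUSG00000105124, chr5:72626858-72628028, minus strand) is a transcribed processed pseudogene inside intron 1 of Cnga1, also on the same strand. CT025671.4 (ENSMUSG00000117296, chr17:66193352-66199820, plus strand) is annotated as a long intergenic noncoding RNA. ENSMUSG00000118515 and ENSMUSG00000120669 have no entry in this annotation, so their position, symbol and transcripts were not analysed here.

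The sequences of the noncoding members show what can mark their reads. Gm15513 and CT025671.4 each have 2 exons, and a read across the exon junction belongs to the spliced RNA rather than to unspliced RNA of a surrounding gene. The lines give 60 bases on each side of the junction, taken from the annotated transcripts, with the 8 bases around it in capitals. The Gm15513 stretch covers chr5:34213530-34213589 and chr5:34213046-34213105 on the minus strand, and the CT025671.4 stretch covers chr17:66196279-66196338 and chr17:66199358-66199417 on the plus strand.
Gm15513-201: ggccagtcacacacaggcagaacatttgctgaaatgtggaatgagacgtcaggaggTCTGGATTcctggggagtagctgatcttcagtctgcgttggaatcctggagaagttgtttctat
CT025671.4-201: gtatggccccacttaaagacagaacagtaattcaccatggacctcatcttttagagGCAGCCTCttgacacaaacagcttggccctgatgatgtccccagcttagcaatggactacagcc
The deposited counts do not separate junction reads from other reads, so the spliced share of Gm15513 was not measured.

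Gm5297 was close in sequence to Pa2g4, a growth-regulated RNA-binding protein gene on chromosome 10. In a local alignment with the transcript Pa2g4-201, 1110 of 1199 columns were identical (92.6%), with 44 mismatches and 45 gap columns, and the aligned bases took in 98.5% of the pseudogene. Of the 1141 stretches of 31 bases in Gm5297, 262 (23.0%) also occurred in Pa2g4. The lines show 120 aligned bases from the coding part of Pa2g4 (coding bases 484 to 603), with the 7 positions where the sequences differ in capitals. The Gm5297 stretch is chr5:72627411-72627530 on the minus strand, and the Pa2g4 stretch is spliced and spans chr10:128560685-128562829 on the minus strand.
Gm5297: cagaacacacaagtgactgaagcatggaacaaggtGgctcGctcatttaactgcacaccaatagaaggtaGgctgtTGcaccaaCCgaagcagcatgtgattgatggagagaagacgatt
Pa2g4: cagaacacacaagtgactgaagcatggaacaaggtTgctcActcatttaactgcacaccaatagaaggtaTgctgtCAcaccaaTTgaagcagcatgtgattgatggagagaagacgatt
Counts of Gm5297 are therefore uncertain, since reads from shared stretches can be divided between the pseudogene and Pa2g4. Gramd2, Ppp1r42, Slc17a1 and Gm15513 shared 0 stretches of 31 bases with any other annotated gene, CT025671.4 shared 13 of 3420, and Glb1l2 shared 154 of 9104, spread over 726 genes.

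The 250 bases before the transcription start were available from RefSeq (GRCm38.p6) for Gramd2 and Slc17a1 only. The window of Gramd2 (chr9:59707387-59707636, plus strand) ends at the start of Gramd2-203, the transcript that held most of its counts. The window of Slc17a1 (chr13:23870023-23870272, plus strand) ends within 8 bases of the start of Slc17a1-202, which held all of its transcript counts. Both windows were searched on both strands for TAATCC (the core of CRX sites, a photoreceptor factor), TGCTGAC (the core of NRL sites, a rod factor), AGGTCA (bound by many nuclear receptors) and the E-box CACGTG. Matches are in capitals.
Gramd2: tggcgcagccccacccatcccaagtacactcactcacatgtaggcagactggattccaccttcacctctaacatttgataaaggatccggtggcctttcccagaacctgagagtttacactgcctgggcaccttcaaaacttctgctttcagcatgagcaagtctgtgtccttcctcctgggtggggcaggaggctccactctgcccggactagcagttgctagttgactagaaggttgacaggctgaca
Slc17a1: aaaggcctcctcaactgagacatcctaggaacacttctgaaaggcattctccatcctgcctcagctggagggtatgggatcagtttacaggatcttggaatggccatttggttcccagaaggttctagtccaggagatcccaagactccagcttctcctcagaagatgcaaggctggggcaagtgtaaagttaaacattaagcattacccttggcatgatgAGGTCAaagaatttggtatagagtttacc
Slc17a1 held AGGTCA between 29 and 24 bases before the start, a motif found in 14.0% of 32851 windows of this length. Gramd2 held none of the motifs. The CRX core was found in 6.25% of windows, the NRL core in 3.81% and the E-box in 6.02%. These letters say nothing about binding.

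Library totals lay between 17998905 and 36692484 estimated counts at 5 mM and between 14815285 and 23129541 at 25 mM, and the totals of the summed replicates between 37944826 and 60098862. Levels below are counts scaled to the library total with TMM factors (CPM), with the 2 libraries of a replicate summed, and they are not corrected for length, so levels of different genes are not compared. Over the genes kept for the 12 libraries, the Spearman correlation between the libraries of a replicate lay between 0.963 and 0.978, except for replicate 2 at 25 mM, where it was 0.939. The second library of that replicate was the closest of all to both libraries of replicate 1 at 5 mM (0.975 and 0.978). Its own closest library was the first of replicate 3 at 25 mM (0.980). The number of members at least 3-fold higher and the calls over all genes are given below with each of its libraries alone. Called neighbours are given with its second library alone. Ratios, transcript shares and marker sums other than that of rods are given for the summed libraries only.

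All 9 genes passed the filter on low counts. No member overlapped between groups, since its lowest replicate at 25 mM exceeded its highest at 5 mM. Among the 21061 genes tested, 16.0% had all 3 replicates at 25 mM above all 3 at 5 mM, and 2.21% had a fitted difference of at least 3-fold in the upward direction, which is what the members were chosen on. The fitted differences ran from 3.16-fold for Ppp1r42 to 10.7-fold for CT025671.4. Just inside the 3-fold limit were Ppp1r42 and Gm15513 (3.71-fold). Just outside it, among the genes beside the members, lay Slc17a3 at 2.98-fold. In bulk RNA, a change in the number of cells of a type and a change in RNA per cell cannot be told apart.

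**Figure D1:**
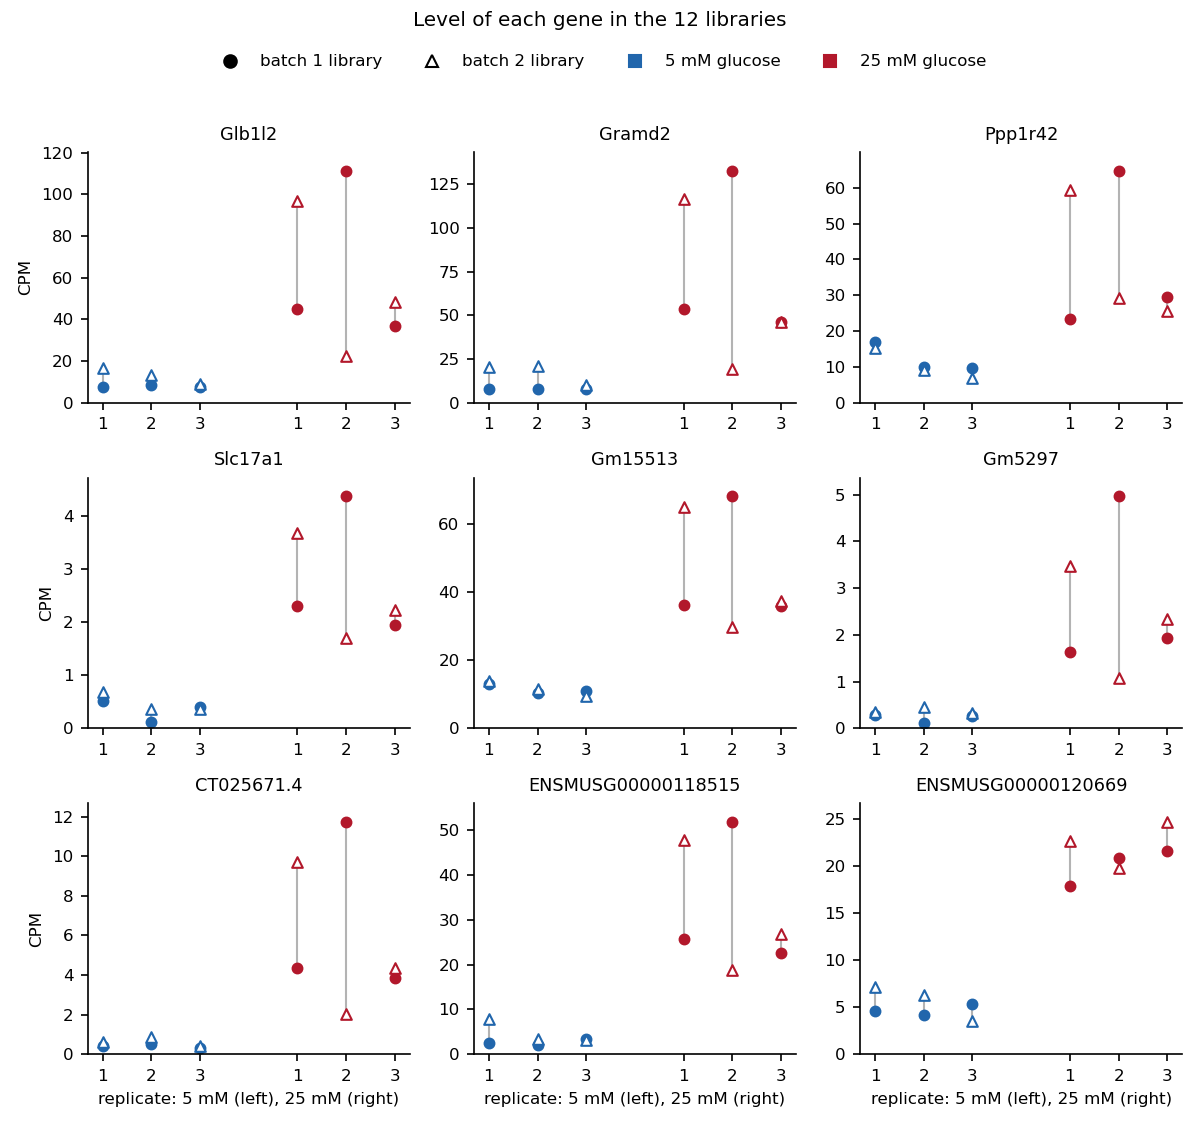
CPM (vertical axis, linear from 0) of each gene in the 12 libraries, with the 3 replicates at 5 mM in blue and at 25 mM in red; filled circles are batch 1 and open triangles batch 2 libraries, joined within a replicate. At 25 mM, replicate 2 has a high batch 1 and a low batch 2 library in most genes, for example 111 and 22.5 CPM in Glb1l2.

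Among the coding members, Glb1l2 had levels of 11.6, 10.5 and 8.28 CPM in the 3 replicates at 5 mM. At 25 mM it had 68.7, 54.3 and 43.3 CPM. The lowest replicate at 25 mM was 3.74 times the highest at 5 mM, and the fitted log2 difference was 2.45 (SE 0.24, n = 3 per group). Gramd2 gave 13.1, 13.7 and 9.06 CPM at 5 mM and 82.5, 60.3 and 46.3 CPM at 25 mM. Its lowest replicate at 25 mM was 3.38 times its highest at 5 mM, with a log2 difference of 2.40 (SE 0.27). Both genes showed their highest level in replicate 1 at 25 mM.

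Ppp1r42 had 16.5, 9.64 and 8.34 CPM at 5 mM and 40.0, 41.5 and 27.5 CPM at 25 mM. The groups did not overlap, but replicate 1 at 5 mM stood above the other two, so the lowest replicate at 25 mM was only 1.67 times the highest at 5 mM. The log2 difference was 1.66 (SE 0.31), the smallest of the 9. Without replicate 1 at 5 mM it was 2.01. Slc17a1 was present at a low level, with 0.596, 0.226 and 0.383 CPM at 5 mM and 2.90, 2.63 and 2.13 CPM at 25 mM. In counts this was 3.03 to 17.0 per library at 5 mM and 38.2 to 76.0 at 25 mM, so the spread at 5 mM includes the error of counting few reads. The log2 difference of Slc17a1 was 2.64 (SE 0.39).

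Among the noncoding members, Gm15513 had 13.5, 11.0 and 10.4 CPM at 5 mM and 49.1, 43.2 and 37.1 CPM at 25 mM, a log2 difference of 1.89 (SE 0.21). Gm5297 had 0.307, 0.272 and 0.298 CPM at 5 mM and 2.48, 2.46 and 2.17 CPM at 25 mM. Replicates of this pseudogene were the least scattered of the 9 on the log2 scale (SD within groups 0.094), and the log2 difference was 3.01 (SE 0.29). The libraries behind it held 3.03 to 8.98 counts each at 5 mM and 24.5 to 71.5 at 25 mM. CT025671.4 had 0.488, 0.679 and 0.362 CPM at 5 mM and 6.82, 5.50 and 4.14 CPM at 25 mM, a log2 difference of 3.42 (SE 0.36) and the largest of the 9. It held 6.95 to 17.1 counts per library at 5 mM.

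ENSMUSG00000118515 had 4.86, 2.69 and 3.28 CPM at 5 mM and 35.7, 30.4 and 25.0 CPM at 25 mM, with a log2 difference of 3.07 (SE 0.29). ENSMUSG00000120669 had 5.71, 5.07 and 4.40 CPM at 5 mM and 19.7, 19.7 and 23.4 CPM at 25 mM, a log2 difference of 2.05 (SE 0.22). It was the only member with its highest level at 25 mM in replicate 3.

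The libraries of a replicate were less alike than these sums show. In replicate 2 at 25 mM all 9 genes were lower in the batch 2 library than in the batch 1 library. Gramd2 had 133 CPM in the first and 19.5 CPM in the second, CT025671.4 had 11.7 and 2.01 CPM, and Gm5297 had 4.97 and 1.07 CPM. In replicate 1 at 25 mM all 9 were higher in batch 2, for example Glb1l2 with 45.1 CPM in batch 1 and 96.6 CPM in batch 2. ENSMUSG00000120669 differed least between the libraries of replicate 2, at 20.8 and 19.8 CPM. Over single libraries, the 6 at 25 mM lay above the 6 at 5 mM in 8 of the 9 genes, which were chosen on these libraries, and in 3.25% of all genes tested. The exception was Gramd2, whose lowest library at 25 mM (19.5 CPM) was below its highest at 5 mM (21.2 CPM, replicate 2 in batch 2).

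Measured within batches, 8 of the 9 genes had a larger difference in batch 1 than in batch 2. Gramd2 had a log2 difference of 3.30 in batch 1 and 1.79 in batch 2, and Glb1l2 had 3.01 and 2.08. Ppp1r42 went the other way, with 1.64 in batch 1 and 1.84 in batch 2. The 9 genes were at least 3-fold higher in each batch. Whether the glucose effect differed between batches was tested with a glucose by batch term over the 12 libraries (quasi-likelihood test of edgeR, with p adjusted by Benjamini-Hochberg over 18725 genes), which the choice of members did not use. The term passed an FDR of 0.05 in 0.0% of genes, 0 of the 9 members included, although 3056 genes (16.3%) had an unadjusted p under 0.05, a level that none of the 9 reached. It was largest for Gramd2, at -1.56 (SE 0.93) on the log2 scale with an adjusted p of 0.428. For Ppp1r42 it was 0.24 (SE 0.58) with an adjusted p of 0.858. The standard errors of the term show that differences of this size between batches were not detectable with 3 replicates.

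With the first library of replicate 2 at 25 mM alone, 9 of 9 members were at least 3-fold higher, and with its second library alone, 8 of 9. The groups of replicates did not overlap in 9 of 9 members in both cases, where the same held for 16.9% and 13.2% of all genes tested. The members were chosen on these libraries, so the counts are a description.

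**Figure D2:**
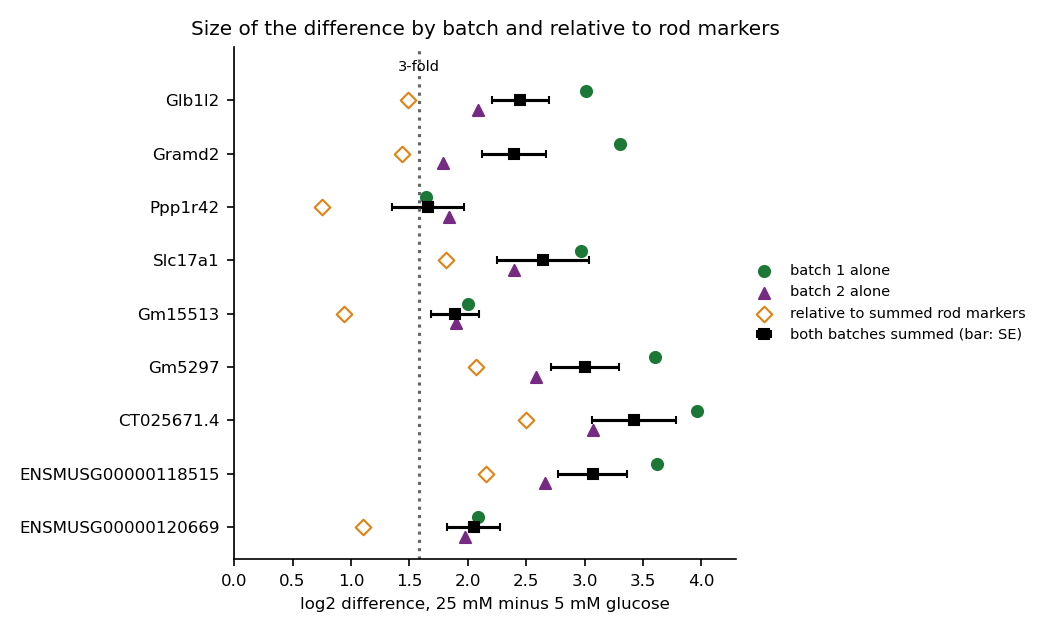
Log2 difference between 25 mM and 5 mM glucose (horizontal axis) for each gene from the summed batches (black squares, bars are SE), each batch alone, and relative to the summed rod markers; the dotted line marks 3-fold. Gramd2 has the widest gap between batches, 3.30 and 1.79, and only Ppp1r42 has a larger value in batch 2.

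Summed markers of several retinal cell types also differed between the groups. Of 7 rod markers, 7 were higher at 25 mM and 5 passed an FDR of 0.05 in the edgeR quasi-likelihood test, among them Nrl, Pde6b and Cnga1, where 1.47% of all genes tested were called higher. The summed rod list, with Gnat1 and Sag as its most abundant genes, had 1514 to 2189 CPM at 5 mM and 3363 to 4083 CPM at 25 mM. Over single libraries this sum overlapped, with 1435 to 2414 CPM at 5 mM and 2266 to 5650 CPM at 25 mM. The lowest at 25 mM was the batch 2 library of replicate 2, whose batch 1 library had 5424 CPM. Summed vascular markers had 947 to 1686 CPM at 5 mM and 514 to 874 CPM at 25 mM, with 7 of 8 lower. Summed microglia markers had 284 to 382 and 118 to 229 CPM, with 8 of 8 lower. Summed Mueller glia markers had 3175 to 4343 and 2032 to 2983 CPM, with 6 of 8 lower. Vim, an intermediate filament gene, held much of that difference, at 1892 ± 544 and 663 ± 235 CPM (SD, n = 3), and the other 7 summed to 1911 to 2133 and 1559 to 2058 CPM, with overlap. None of the vascular, Mueller glia or microglia markers passed the edgeR test. In that test 6, 4 and 5 of 8 had an unadjusted p under 0.05, as did 28.7% of all genes tested. Of these markers only Aqp4, of the Mueller glia list, was higher (log2 difference 0.76). DESeq2 called 6, 2 and 3, all lower. Summed cone markers had 74.7 to 89.9 and 98.4 to 119 CPM, with 5 of 8 higher, 3 lower and 1 called higher by edgeR. DESeq2 called 3 higher and 1 lower. The lowest log2 difference among cone markers was that of Opn1sw, at -1.01 (SE 0.26). Summed bipolar markers had 1348 to 1428 and 1089 to 1311 CPM, and summed amacrine markers 458 to 562 and 295 to 441 CPM. Both sums were lower at 25 mM without overlap, with 4 of 8 markers lower and 4 higher in each list. None was called by edgeR, and 3 in each had an unadjusted p under 0.05 in its test. Among those, Cabp5 (bipolar, log2 difference 0.99) and Chat (amacrine, 1.94) were higher. DESeq2 called 2 bipolar markers, both lower, and 3 amacrine markers, 2 lower and 1 higher. No marker of these lists was at 0. Other summed lists overlapped between 5 and 25 mM, with 0 markers called by edgeR. These were ganglion (204 to 356 and 234 to 325 CPM), horizontal (175 to 264 and 170 to 246 CPM) and lens markers (121 to 340 and 111 to 228 CPM). DESeq2 called 1 ganglion marker, lower, and 0 of the horizontal and lens markers. The retinal pigment epithelium had been removed, and of its 8 listed markers Rpe65 was at no more than 0.0904 CPM in any replicate. Ttr had 0.657 to 2.26 CPM, and Rlbp1, also on the Mueller glia list, 226 to 346 CPM. Rgr had 0.235 to 0.830 CPM at 5 mM and 1.02 to 1.58 CPM at 25 mM. Of the 6 tested, 2 were higher and 4 lower, with 0 called by edgeR and 1, higher, by DESeq2.

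The summed rod list differed by 0.95 on the log2 scale. The log2 difference of the ratio of a member to this sum lay between 0.75 for Ppp1r42 and 2.50 for CT025671.4. A log2 difference above 0 here follows from choosing members at 3-fold or more, which exceeds the difference of the sum, so it is given as a description. Single rod markers differed by 0.45 (Gnat1) to 2.12 (Cnga1) on the log2 scale, so the ratio depends on the markers summed. The groups overlapped in this ratio for Ppp1r42 alone. The part of cell composition in the members' levels was not tested. For Slc17a1, a list of kidney tubule markers was read. Slc34a1, Slc22a6 and Slc5a2 of the proximal tubule were at or below 0.0905 CPM, and Umod, of the loop of Henle, was at 0. The endocytic receptor genes Cubn and Lrp2 were present, with 1.36 to 2.28 CPM and 22.1 to 28.4 CPM, and neither passed the edgeR test (log2 differences of -0.16, SE 0.29, and -0.07, SE 0.18, adjusted p of 0.729 and 0.830).

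The RNA of the coding genes came from several annotated transcripts. Slc17a1-202 held all transcript counts of Slc17a1, at 33, 10 and 18 in the replicates at 5 mM and 124, 98 and 95 at 25 mM, and the other 3 transcripts were listed at 0. Gramd2-203 held 88.2% ± 9.3 (SD, n = 3) of the Gramd2 counts at 5 mM and 67.7% ± 8.7 at 25 mM. Ppp1r42-202, annotated as a target of nonsense-mediated decay, held 58.9% ± 8.0 and 53.3% ± 0.8, so the greater part of Ppp1r42 reads was given to a transcript that is not translated into the full protein. The counts of Glb1l2 were spread over 4 coding transcripts, and the division between Glb1l2-201 and Glb1l2-202 varied widely, with 58.3% ± 29.8 and 26.7% ± 22.9 at 5 mM.

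The share of transcripts that keep an intron was compared in 3 of the coding genes. In Gramd2 their share of counts was 15.6%, 11.4% and 0.212% in the replicates at 5 mM and 32.9%, 33.1% and 19.9% at 25 mM. In Ppp1r42, whose retained-intron transcript is Ppp1r42-205, it was 4.65%, 5.55% and 1.42% at 5 mM and 15.0%, 12.6% and 13.5% at 25 mM. All replicates at 25 mM lay above those at 5 mM in both genes, as in 30.0% of the 8598 tested genes with counts in such transcripts. In Glb1l2 the groups overlapped, with 4.26% to 4.85% at 5 mM and 4.09% to 6.98% at 25 mM. These shares come from the comparison the genes were chosen on and rest on estimated divisions of reads, so they are given without a test, and more unspliced RNA and more of these transcripts cannot be told apart.

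**Figure D3:**
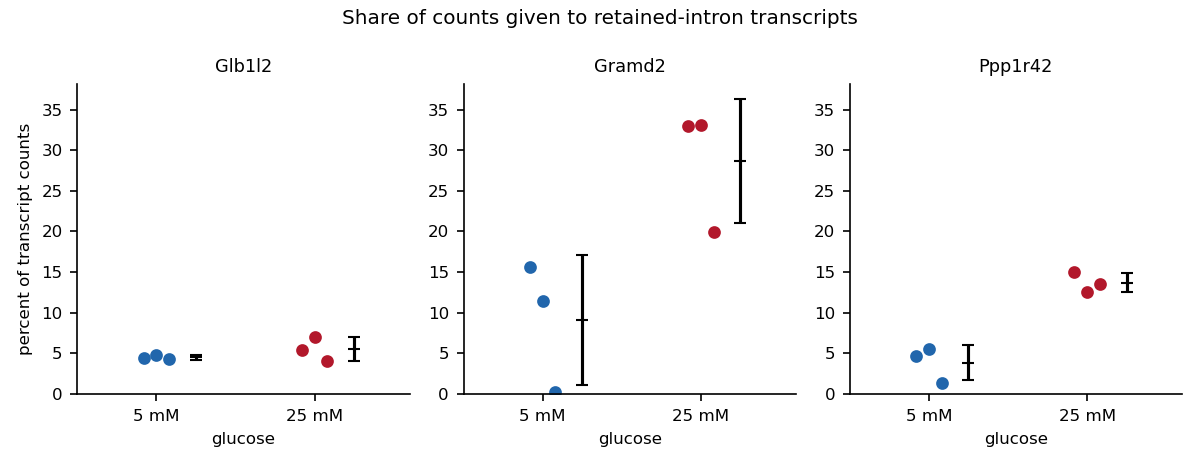
Percent of a gene's transcript counts given to retained-intron transcripts (vertical axis) in each replicate at 5 mM (blue) and 25 mM (red) glucose, with mean and SD beside the points. The groups separate in Gramd2 and Ppp1r42 and overlap in Glb1l2.

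The genes around the 7 placed members were read from the same fit over all genes, taking any tested gene that overlaps a member and the nearest 2 on each side. Of 31 neighbours, 23 had a log2 difference above 0 and 8 below, with a median of 0.64 beside -0.01 over all genes. Of these, Zfyve28 and Cnga1, which surround Gm15513 and Gm5297, passed an FDR of 0.05 (quasi-likelihood test of edgeR, Benjamini-Hochberg adjusted), which is 2 of 31 where 1.98% of all genes tested were called in either direction. Both surround, on the same strand, a member chosen on this contrast, so these 2 calls may not be independent of the choice. An unadjusted p under 0.05 was found for 16 of the 31, where 28.7% of all genes had one. Among neighbours, 12 had all replicates at 25 mM above those at 5 mM and 3 all below, where 16.0% and 15.8% of all genes did.

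Zfyve28, an endosomal FYVE-domain protein that surrounds Gm15513, had 12.6, 20.7 and 14.7 CPM at 5 mM and 69.4, 46.6 and 43.5 CPM at 25 mM. Its log2 difference was 1.73 (SE 0.27, adjusted p 0.033 by the edgeR quasi-likelihood test). The ratio of Gm15513 to Zfyve28 was 52.8% to 108% at 5 mM and 70.8% to 92.7% at 25 mM, so the groups overlapped in the ratio. With the same strand and an intronic position, reads of Gm15513 outside its junction and reads of unspliced Zfyve28 cannot be told apart.

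Cnga1, which codes for the rod cyclic nucleotide-gated channel subunit and surrounds Gm5297, had 130, 78.7 and 71.4 CPM at 5 mM and 441, 474 and 306 CPM at 25 mM. Its log2 difference was 2.12 (SE 0.29, adjusted p 0.026 by the edgeR quasi-likelihood test). The ratio of Gm5297 to Cnga1 was 0.235% to 0.417% at 5 mM and 0.519% to 0.710% at 25 mM, without overlap between the groups. Gm5297 has 1 exon and lies in a Cnga1 intron on the same strand. Reads of Gm5297 and reads of unspliced Cnga1 therefore cannot be told apart, and this ratio does not separate them. Relative to Pa2g4, the parent of Gm5297, the ratio of Gm5297 was 0.166% to 0.181% at 5 mM and 1.54% to 2.50% at 25 mM. Pa2g4 itself had a log2 difference of -0.41 (SE 0.18) with an adjusted p of 0.173 in the edgeR test, opposite in sign to the pseudogene.

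Both calls depended on single replicates. Without replicate 2 or replicate 3 at 5 mM, or replicate 1 or replicate 2 at 25 mM, neither Zfyve28 nor Cnga1 passed an FDR of 0.05, and the same held for batch 2 alone and with the second library of replicate 2 at 25 mM alone. In each of these cases 0 genes were called over all genes tested. Zfyve28 was called under 10 of 17 settings and Cnga1 under 11. Over these settings the log2 differences were at least 1.23 for Zfyve28 and at least 1.82 for Cnga1. Without replicate 1 at 5 mM, 10 of 31 neighbours were called, and 5845 genes over all genes tested.

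**Figure D4:**
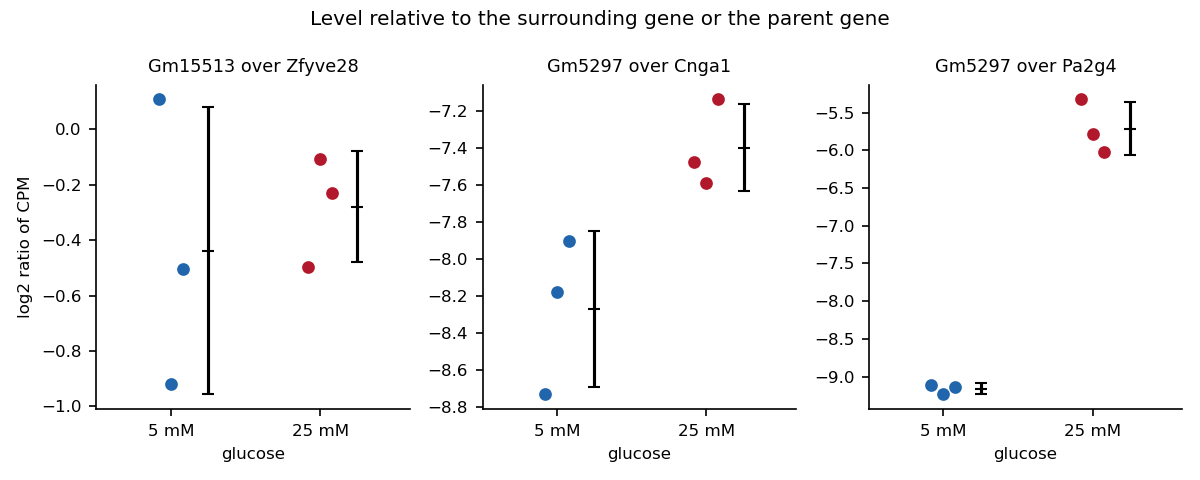
Log2 ratio of CPM (vertical axes differ between panels and do not start at 0) of Gm15513 to Zfyve28, Gm5297 to Cnga1 and Gm5297 to Pa2g4 in each replicate, with mean and SD. The Gm15513 ratio overlaps between 5 mM and 25 mM, and both Gm5297 ratios are higher in all replicates at 25 mM.

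The neighbours that do not overlap a member went in different directions. Those beside Gm5297 were all higher at 25 mM, without overlap between the groups. Zar1 had a log2 difference of 2.28 (SE 0.77), Gm5868 1.62 (SE 0.39), Nipal1 0.64 (SE 0.28) and Txk 0.93 (SE 0.30). None of them passed the edgeR test, with adjusted p between 0.066 and 0.174. Zar1 was at no more than 0.407 CPM in any replicate. Pkm, the gene of the glycolytic enzyme pyruvate kinase, ends 769 bases before the annotated start of Gramd2 on the same strand. That start is of Gramd2-202, which held 0.97% and 1.04% of Gramd2 counts at 5 and 25 mM. Gramd2-203, which held most of the counts, starts farther away, at chr9:59707637. Pkm was measured at 799 ± 335 CPM with 5 mM and 388 ± 82.3 CPM with 25 mM (SD, n = 3). Its log2 difference was -1.04 (SE 0.34, adjusted p 0.102 by edgeR), opposite in sign to that of Gramd2. Tcf24 lies 692 bases from Ppp1r42 and had a log2 difference of 0.12 (SE 0.29). Cspp1, a centrosome and cilium protein gene 28851 bases away, had 0.93 (SE 0.25, adjusted p 0.075 by edgeR). B3gat1 does overlap a member, as it shares 58 bases of exon with Glb1l2 on the opposite strand. Its log2 difference was -0.25 (SE 0.17). Ppp1r42 shares 64 bases of exon with E330040D14Rik on the opposite strand, a gene not analysed here, and whether counting used the strand is not given in the sources used here.

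CT025671.4 lay between genes of both signs. Ddx11, a DNA helicase gene 41178 bases before it, had a log2 difference of -0.52 (SE 0.21), and CT025671.2, 27429 bases after it, had 1.03 (SE 0.30). Neither passed the test, with adjusted p of 0.156 and 0.086 by edgeR. Slc17a1 lies in a cluster of its own family. Slc17a3, 7034 bases from it, was measured at 0.325 ± 0.063 CPM with 5 mM and 0.975 ± 0.166 CPM with 25 mM, a log2 difference of 1.58 (SE 0.34, adjusted p 0.056 by edgeR), and Slc17a2 had 1.32 (SE 0.60). Both are at low levels, and the remaining family member of the cluster, Slc17a4, was at 0 in all libraries.

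**Figure D5:**
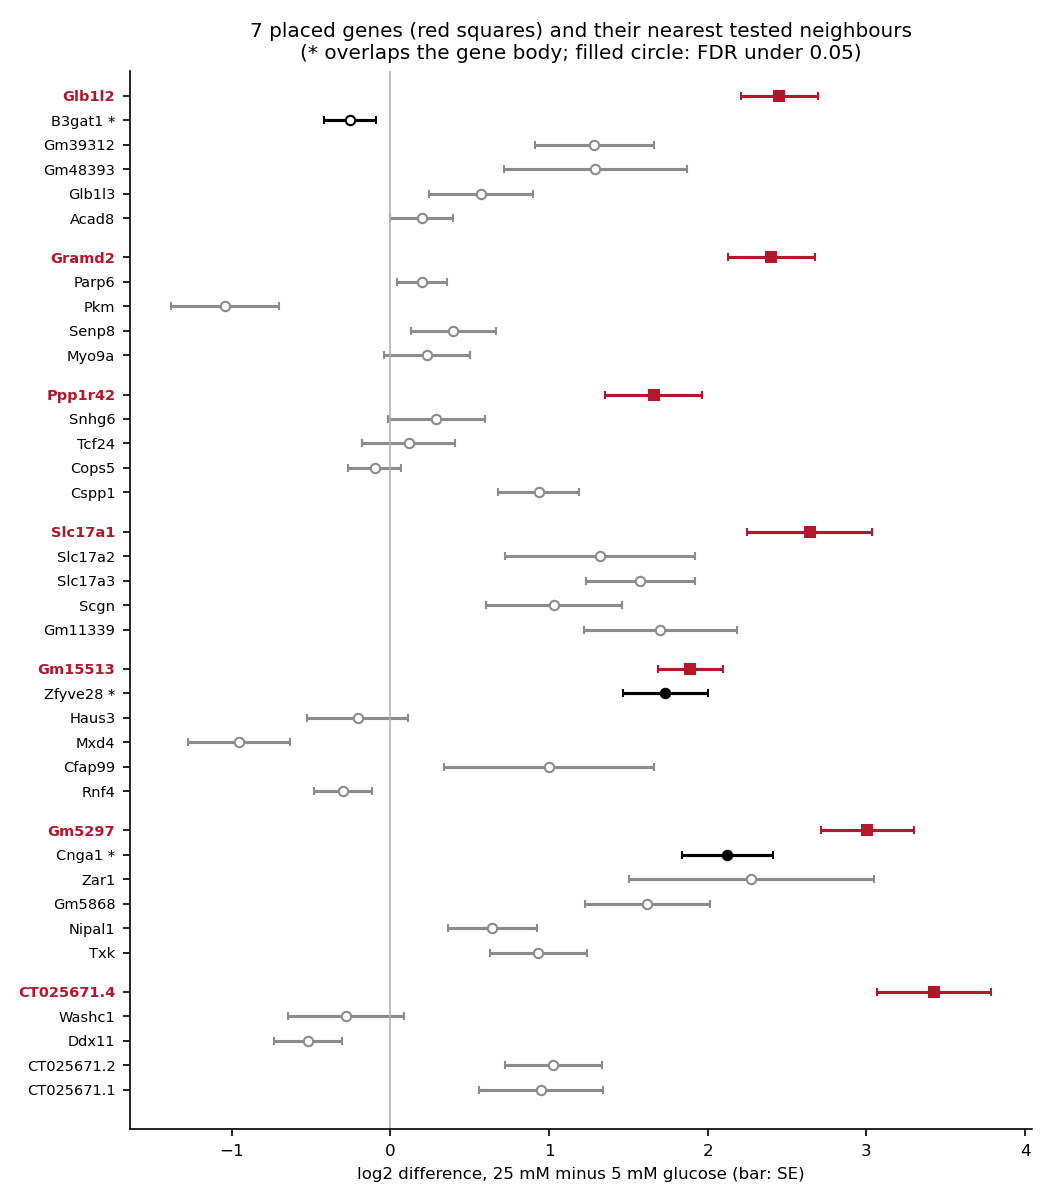
Log2 difference between 25 mM and 5 mM glucose with SE (horizontal axis) of the 7 placed genes (red squares) and their neighbours; black marks with an asterisk overlap the gene and filled circles passed an FDR of 0.05. Only Zfyve28 (1.73) and Cnga1 (2.12) are filled, and Pkm (-1.04) has the lowest value.

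Relatives of the coding genes were taken from lists of beta-galactosidase-like, GRAM domain and Slc17 genes and of phosphatase 1 and centrosome partners of Ppp1r42. Of 21 tested, 8 had a log2 difference above 0 and 13 below, with a median of -0.34. None passed an FDR of 0.05 in the edgeR quasi-likelihood test, where 1.98% of all genes tested did. In that test 6 had an unadjusted p under 0.05, as did 28.7% of all genes. DESeq2 called 5 relatives, of which only Slc17a3 was higher, and 3489 genes over all genes. Glb1, the lysosomal beta-galactosidase itself, had the lowest value of the lists, at 21.9 ± 6.96 CPM with 5 mM and 8.93 ± 2.95 CPM with 25 mM (SD, n = 3). Its log2 difference was -1.30 (SE 0.34, adjusted p 0.071 by edgeR), opposite in sign to Glb1l2. Glb1l3, a neighbour of Glb1l2 in the same family, had 0.57 (SE 0.33). All 5 tested GRAM domain relatives of Gramd2 were uncalled, 4 of them with values below 0, and 5 of 6 partners of Ppp1r42 had values below 0. The highest value of the lists was that of Slc17a3, described above.

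Likeness within conditions was described by the Pearson correlation of log2 CPM deviations from the condition mean over the 12 libraries. Libraries of a replicate share their source, so these 12 points are not independent, and no p is given. Gramd2 was most like Abca4, a retinoid transporter of photoreceptor discs (r = 0.995), Mpp4, a photoreceptor scaffold protein gene (0.980), and Gnb5, a G protein beta subunit (0.979). Glb1l2 was most like Mpp4 (0.985), Rgs9 (0.982), which shortens the light response of photoreceptors, and Abca4 (0.977). Without the 2 libraries of replicate 2 at 25 mM, these 6 correlations lay between 0.960 and 0.989 over 10 libraries. Slc17a1 was most like Dph6 (0.969), AC166748.2 (0.956) and 2700097O09Rik (0.945), and Ppp1r42 was most like Ash1l (0.964), Xrn1 (0.962) and Tax1bp1 (0.962). Among the members, the 36 pairwise correlations ran from 0.30 to 0.97 with a median of 0.73. Glb1l2 and Gramd2 formed the closest pair (0.97), and ENSMUSG00000120669 had values of 0.56 or less with every other member.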

How the data were processed

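The authors deposited estimated counts per gene and per transcript, not normalized, for 12 paired-end RNA-seq libraries from total RNA. The aligner and counting tool are not given in the sources used here, and the submitters' processing notes name GRCm38. The design had spoken of gene counts, so the 2 libraries of a replicate were summed and rounded to whole numbers. Genes were filtered with filterByExpr, normalized by TMM and tested with the edgeR 4.0.16 quasi-likelihood test (version 3 method, R 4.3.3), 3 against 3 with no block for replicate numbers. P-values were adjusted by Benjamini-Hochberg over 21061 genes and calls made at an FDR under 0.05. Fold changes use edgeR's prior count of 0.125, and log2 CPM a prior count of 2. The procedure was tested on simulated data. DESeq2 1.42.0 was an alternative. Symbols, positions and transcripts came from GENCODE M21, which covered 90.8% of 53707 genes and 92.0% of transcripts, and 0 columns were left unused. Sequences were aligned with biotite 1.4.0.

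The members, gene lists, motifs and tests were chosen with earlier results of these data known. Named genes were the 9 members, the overlapping and nearest 2 tested genes on each side, the relatives with the largest change in each direction, and for each coding member the 3 genes of at least 1 CPM with the highest within-condition correlation. Other names (Pa2g4, markers and further relatives) were added after values were seen, and 1 marker of the planned rod list is not reported here. The deviations of same-numbered replicates correlated at -0.01, -0.45 and 0.29 over genes, so the numbers do not pair the samples. Depth limits the counting error only, since amplified reads without molecular identifiers are not independent molecules.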

Additional observations from a re-analysis of the deposited data

Results flagged for a closer look

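In ENSMUSG00000118515 the batch 2 library of replicate 1 at 5 mM glucose, at 7.85 CPM, lay far from the other 5 libraries at 5 mM, which had 2.11 to 3.41 CPM. It was the only such library among 18 sets of 6 libraries examined (9 genes at 2 glucose concentrations), and chance alone gives about 1 in 20. The library was still below the lowest at 25 mM, which had 18.7 CPM. The glucose by batch term did not pass the FDR threshold in any of the 9 genes.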

How the results depend on the processing

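The 9 members were higher at 25 mM glucose in all 160 values under the alternatives, which included RLE size factors, library totals, no filter, DESeq2, each batch, a replicate block, transcript counts and each replicate left out, and 150 of these were at least 3-fold, a description of genes chosen as higher in these libraries. The number of members at least 3-fold higher lay between 8 and 9 with single replicates left out and was 6 of the 7 found in the transcript table. Called neighbours, 2 in the edgeR quasi-likelihood test, were 6 without a filter, 11 with DESeq2, 7 in batch 1, 0 in batch 2 (5 with an unadjusted p under 0.05), 1 with transcript counts, 0 with the second library of replicate 2 at 25 mM alone, 0 at an FDR under 0.01 with a fold change over 2, and 0 to 10 with replicates left out. Relatives of the coding genes, of which 0 were called, gave 4 without a filter, 5 with DESeq2, 3 in batch 1 and 0 to 9 with replicates left out. Over all genes, 417 were called, against 1979 without a filter, 3489 with DESeq2, 3279 in batch 1, 0 in batch 2 (2203 unadjusted), 169 and 0 with the first and second library of replicate 2 at 25 mM alone, 0 at the stricter threshold, and 0 to 5845 with replicates left out. The highest count came without replicate 1 at 5 mM, and counts of 0 without replicates 2 or 3 at 5 mM, or 1 or 2 at 25 mM. Without a filter the glucose by batch term called 127 genes. The cause of these shifts was not tested.

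The replicate numbers do not pair the samples. With a replicate block, 990 genes and 3 neighbours (Scgn, Zfyve28 and Cnga1) were called, 0 relatives, and 9 members were at least 3-fold higher. Among the 31 neighbours, Glb1 and Pa2g4, the values that changed sign were of neighbours uncalled with all libraries: in batch 1 alone B3gat1 (0.27), Tcf24 (-0.29) and Washc1 (0.0043), in batch 2 alone Scgn (-0.13) and Haus3 (0.24), and with replicates left out Tcf24 (-0.13 to 0.30), Cops5 (-0.16 to 0.0085) and Haus3 (-0.44 to 0.21), all log2 differences. The ratio to rod markers and the separate libraries of replicate 2 were added after seeing the data. Low counts limit Slc17a1, Gm5297 and CT025671.4 at 5 mM.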
